A study of Sus scrofa with 4 samples.

Results

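The genes of translation described here are 61 genes that code for the initiation and elongation factors of protein synthesis, the cytosolic poly(A)-binding protein PABPC1 and the aminoacyl-tRNA synthetases, out of 6765 genes that have a probe set with a single symbol on the porcine array. They were chosen by name: EIF or EEF followed by a digit, the release factors ETF1 and GSPT1, PABPC1, and symbols of the synthetase form such as AARS. ETF1, GSPT1 and the elongation factor EEF2 were not analysed here. The 61 genes comprise 34 initiation factors (counting PABPC1 and EIF4A3, which has the name but not the role), 5 elongation factors, 12 cytosolic synthetases and 6 mitochondrial synthetases. The remaining 4 genes are taken in by name but regulate or accompany the machinery (EEF1E1, EIF2AK2, EIF4EBP2 and EEF1AKMT1). They were measured through 91 probe sets, and 22 genes have more than one, of which the one with the highest mean log2 signal stands for the gene.

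Translation starts when the factor eIF2 brings the initiator tRNA to the small ribosomal subunit and the eIF4 factors, of which eIF4E holds the cap of the mRNA, recruit that subunit to the message with the help of the large factor eIF3. Elongation factors then deliver the charged tRNAs and move the ribosome along, and each charged tRNA is made by the synthetase of its amino acid. In the liver, which secretes most plasma proteins, this machinery is large and its activity follows feeding, mainly through phosphorylation of eIF2, of the proteins that bind eIF4E and of elongation factors.

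The pigs of the carnitine group received 500 mg added L-carnitine per kg of diet for 21 days, and those of the control group the basal diet alone, which is low in native carnitine. Both groups were male (German Landrace x Large White) x Pietrain crossbreds of 7 weeks, with 8 pigs per diet, and liver was collected 2.5 h after the last meal. Each pool combined RNA of 4 animals, so that 2 carnitine pools and 2 control pools on 4 arrays carry the comparison, single pigs cannot be followed, and error is the spread between pools of one diet. The question of the comparison was whether added L-carnitine goes along with other levels of these transcripts in the liver.

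The deposited values are MAS5 signal intensities with a trimmed mean of 500.1 on every array and medians from 109 to 114. Liver was recognisable in every pool, since all 13 annotated hepatocyte markers of 15 listed lay above the median signal, with summed signals of 357129 and 328661 with carnitine against 382436 and 354359 without. Control pool 2 stood apart in the summed markers of stellate cells and fibroblasts (8 genes, 4634 and 4403 with carnitine and 3391 and 12135 without). The cholangiocyte sum (5 genes) was 1769 and 1311 against 1240.3 and 7364. Single genes weighed heavily in both: ACTA2 read 5533 and SPP1 6231 in control pool 2, against 542 and 920 in control pool 1. ACTA2, TAGLN, DCN, LUM, PDGFRB, SPP1, EPCAM and KRT19 were highest in control pool 2. COL3A1, RGS5, COL1A2, CFTR and SOX9 were not, and COL1A2 was lowest there. The 3 annotated erythroid markers summed to 771 and 574 against 1027 and 1362, lower with carnitine in both pools: ALAS2, the haem synthesis enzyme of red cell precursors, had a log2 ratio of -1.39 ± 0.30 (SE), AHSP -1.03 and HBB 0.073. Control pool 1 had the highest sum of T and NK cell markers (10 genes, 1309 and 1097 with carnitine against 2078 and 1284 without). It also had the highest B and plasma cell sum (2 genes, 1590 and 1862 against 2753 and 1520.5). CD3D, CD2, CD3G, CD4 and PRF1 were not highest there. The endothelial sum (8 genes) was 3860 and 2525 against 3042 and 5455. That of macrophages (7 genes) was 10819 and 12094 against 12262 and 11606. The 4 annotated neutrophil markers all lay below the median signal. The ratio of 3' to 5' signal of the GAPDH control was 18.7 and 16.1 with carnitine and 12.5 and 11.6 without, and that of actin 157 and 136 against 91.2 and 86.7, so that both were separate between the diets. For EF1A it was 23.4 and 29.6 against 57.9 and 18.2, highest on the array of control pool 1. The part of these differences in the results was not tested. A lower signal from fewer cells of a type cannot be told apart from less RNA per cell in pooled tissue.

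The largest differences between the diets among members above the median signal were in EEF1E1, a scaffold protein of the multisynthetase complex, and in EIF4E, the cap-binding protein. Both were higher in the carnitine pools. Both subunits of eIF2 that were measured, the kinase EIF2AK2 and the helicases EIF4A1 and EIF4A3 were also higher, while the eIF3 subunit EIF3H, the elongation factor EEF1G and the synthetases SARS and DARS were lower. No member passed an adjusted p of 0.05 in limma (0 of 61, smallest adjusted p = 0.212 for EEF1E1), and over all 23999 probe sets 1 did, or 0.00417%. By unadjusted limma p under 0.05, 8 members were higher and 4 lower. Over all probe sets 4.72% were higher and 3.93% lower at that p, and over the 5039 genes above the median signal, which are nearer in brightness to the members, 7.98% were higher and 4.37% lower, against 13.1% and 6.56% of the members. The 8 higher members include NARS2, the single member below the median signal, which that set of genes could not hold. For 12 members called from 61 the difference in shares rests on a few genes, and it was not tested.

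All 12 of these members had both carnitine pools on one side of both control pools. The same separation held for 20 members higher and 13 lower in the carnitine pools, or 32.8% and 21.3%, beside 23.7% and 21.6% of the genes above the median signal, so that the share of separated members was near the background on the lower side. The log2 fold changes, or log2 ratios, of carnitine over control were above 0 for 30 members and below 0 for 31, with a median of -0.019, beside 0.0031 for genes above the median signal. The typical size of a difference, as the median absolute log2 fold change, was 0.30 for the members and 0.25 for those genes. With 2 pools against 2, an exact two-sided permutation test cannot go below p = 0.333, so that only the fit across all probe sets gives smaller p-values. The 95% interval of the log2 fold change lay within a 2-fold change in both directions for 42 members, and for the other 19 it held a 2-fold change.

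**Figure D1:**
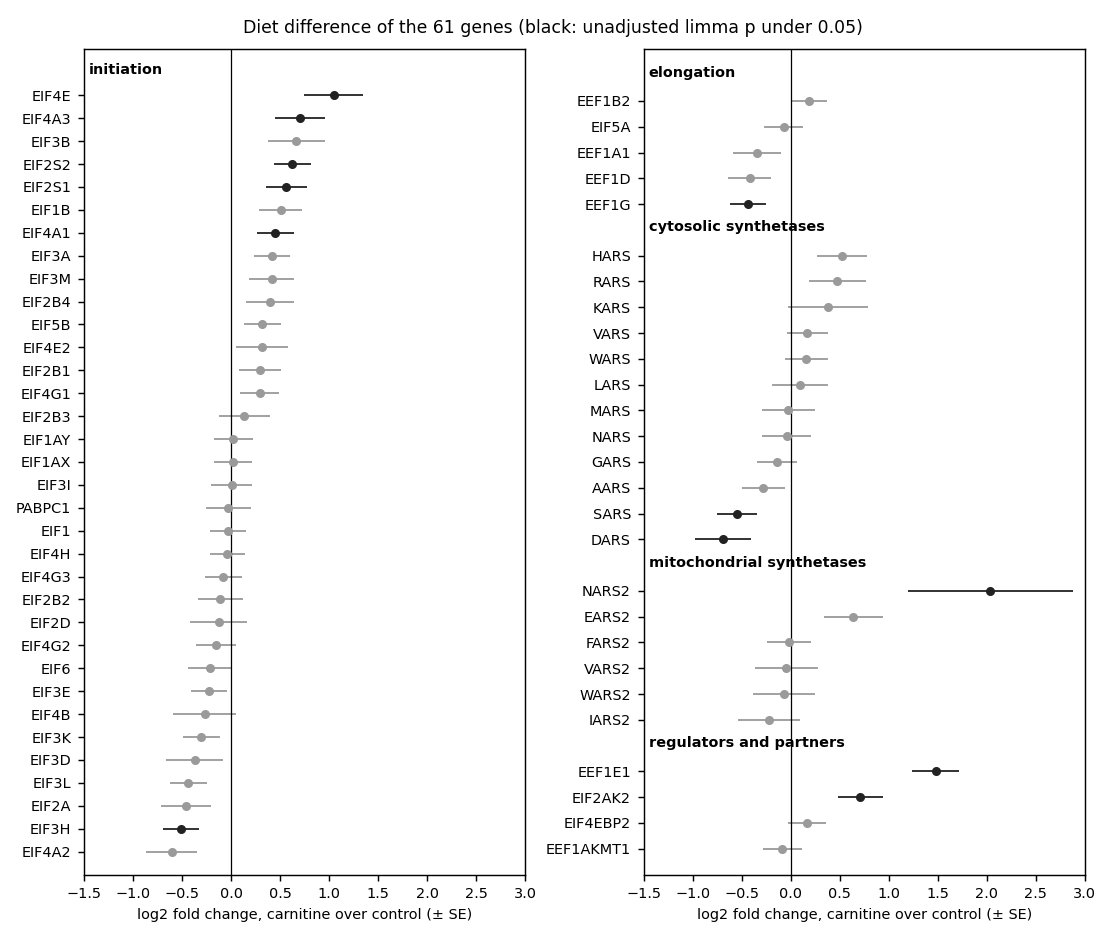
Log2 fold change of the 61 genes, carnitine over control pools, with standard errors from limma, in panels for initiation factors and for the other groups, and with black points for the 12 genes at an unadjusted p under 0.05. Initiation factors run from 1.05 (EIF4E) to -0.60 (EIF4A2) with a median near 0, and the widest bar belongs to NARS2, the single gene below the median signal.

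**Figure D2:**
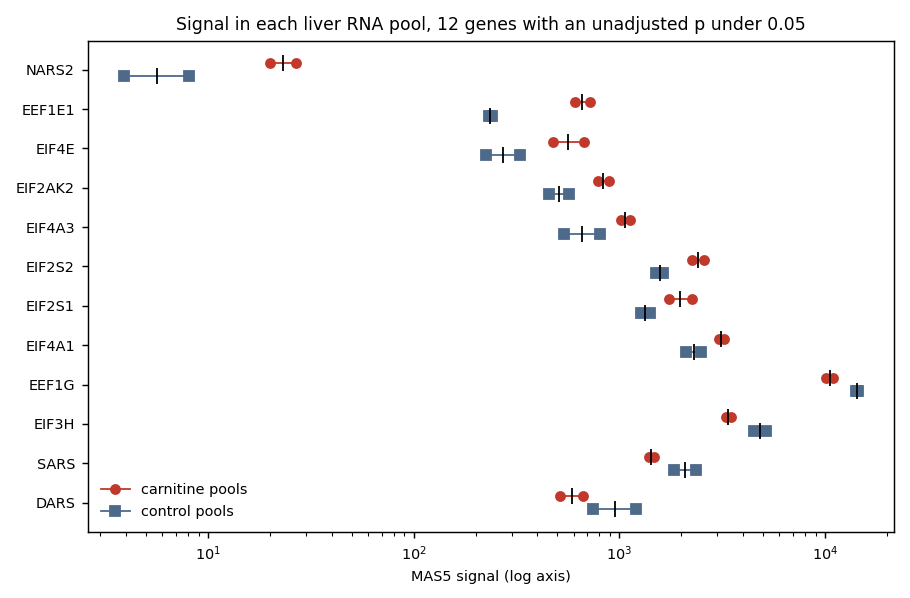
MAS5 signal of the 12 genes with an unadjusted p under 0.05 in each liver RNA pool, on a log axis, with red circles for the carnitine pools, blue squares for the control pools, thin lines between pools of one diet and a black tick for the geometric mean. In each of the 12 genes the circles and squares lie apart, by the widest margins for EEF1E1 and, at the dim end, NARS2.

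Of the initiation factors, eIF2 differed in the same direction in both measured subunits. EIF2S1, the alpha subunit whose phosphorylation halts general initiation, had signals of 1736 and 2247 with carnitine against 1272 and 1405 without (log2 ratio 0.56 ± 0.21, SE, and limma adjusted p = 0.522). EIF2S2, the beta subunit, had 2261 and 2578 against 1508 and 1629 (log2 ratio 0.62 ± 0.19, SE, and limma adjusted p = 0.446). In both genes the lower carnitine pool lay above the higher control pool. The gamma subunit shares its probe sets with a second symbol and was not analysed here.

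The subunits of eIF2B, the exchange factor that reloads eIF2 with GTP, showed no common difference. EIF2B4, the delta subunit, had 723 and 1012 with carnitine against 691 and 611 without, a log2 fold change of 0.40 with an interval from -0.17 to 0.97. EIF2B1, the alpha subunit, had 0.30, and for both of these genes the pools of the diets did not overlap. EIF2B3 and EIF2B2, the gamma and beta subunits, had 0.14 and -0.11, with overlapping pools.

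Among the initiation complexes, the cap-binding factors held the widest range, from -0.60 to 1.05. EIF4E gave 474 and 671 with carnitine against 330.1 and 226 without, which is a fold change of 2.07 (log2 ratio 1.05 ± 0.30, SE, and limma adjusted p = 0.429). Its homologue EIF4E2, which competes for the cap and represses the message, had a log2 fold change of 0.31, and its pools overlapped. EIF4G1, the scaffold that joins the cap to the ribosome, had 3602 and 3761 against 3382 and 2675 (log2 ratio 0.29 ± 0.20, SE), while the related scaffold EIF4G3 was nearly level at -0.077, with an interval from -0.52 to 0.37.

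The closely related RNA helicases EIF4A1 and EIF4A2, which unwind the leader of the message, had differences of opposite sign. EIF4A1 had signals of 3049 and 3226 with carnitine against 2102 and 2505 without, a log2 fold change of 0.45 (SE 0.19, limma adjusted p = 0.575). EIF4A2 had 6835 and 5253 against 11264 and 7365, or -0.60 (SE 0.26, limma adjusted p = 0.581), and its interval from -1.21 to 0.0062 just held 0. It was -0.30 when control pool 1 was left out and -0.91 when control pool 2 was. The pools of the diets were separate in both genes, with control pool 1 at the extreme in both. Whether the gap between the pair differs from 0 was not tested. EIF4A3, a helicase of the same family that sits in the exon junction complex and not in initiation, had 1013 and 1129 against 537 and 806 (log2 ratio 0.70 ± 0.25, SE, and limma adjusted p = 0.509), and its log2 fold change was 0.41 when control pool 1 was left out.

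EIF4B, which stimulates the helicase, is measured by 2 probe sets above the median signal that lay on the same side of 0. The brighter one had 2992 and 2579 with carnitine against 2365 and 4726 without (log2 ratio -0.27 ± 0.32, SE), where the control pools enclose both carnitine pools. The dimmer one had 1081 and 967 against 1437 and 1917 (log2 ratio -0.70 ± 0.22, SE), with the pools apart. EIF4H, its relative, was at -0.038. PABPC1, which binds the poly(A) tail and contacts EIF4G1, was bright and level, at 17371 and 14755 against 13910.3 and 19116 (log2 ratio -0.027 ± 0.23, SE), again with the control pools on either side of the carnitine pools.

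The subunits of eIF3, a factor of many subunits that holds the small ribosomal subunit, fell on both sides of 0. Of 9 subunits, 3 had separate pools with the carnitine pools higher and 4 with the carnitine pools lower, beside 23.7% and 21.6% of the genes above the median signal. Only 1 of the 9, EIF3H, had an unadjusted p under 0.05, beside 12.3% of those genes in either direction. EIF3H had 3287 and 3488 with carnitine against 4494 and 5161 without (log2 ratio -0.51 ± 0.18, SE, and limma adjusted p = 0.509). EIF3L showed 1058 and 1004 against 1355 and 1433 (log2 ratio -0.44 ± 0.19, SE), EIF3K 4082 and 3444.5 against 4687 and 4569 (log2 ratio -0.30 ± 0.19, SE), and EIF3E had -0.22. On the other side, EIF3A, the largest subunit, had 7447 and 7573 with carnitine against 5358 and 5895 without (log2 ratio 0.42 ± 0.18, SE). EIF3B, which binds EIF3A, had 521 and 797 against 351 and 470.2 (log2 ratio 0.67 ± 0.29, SE), with the higher value resting on carnitine pool 2: the log2 fold change was 0.36 without that pool and 0.97 without carnitine pool 1.

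The remaining subunits gave 0.42 for EIF3M, 0.0051 for EIF3I and -0.37 for EIF3D. A second probe set of EIF3M gave -0.030. The intervals of EIF3A, EIF3B, EIF3L, EIF3K, EIF3E, EIF3M, EIF3I and EIF3D held 0, and the subunits were not tested against each other.

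Among the factors that find the start codon and join the subunits, EIF1 was bright and even, at 13209 and 13253 with carnitine against 13679 and 13336 without (log2 ratio -0.030 ± 0.18, SE). The pools did not overlap, but the whole difference was small. A dimmer probe set of EIF1 gave -0.50. EIF1B, a near copy of EIF1, had 1852 and 2187 against 1634 and 1228 (log2 ratio 0.51 ± 0.22, SE), and EIF5B, the GTPase of subunit joining, 1549 and 1599.9 against 1309.7 and 1217 (log2 ratio 0.32 ± 0.19, SE). EIF1AX and EIF1AY, the near-identical copies on the sex chromosomes, had log2 fold changes of 0.018 and 0.023 in these male pigs, and probes of one may read the other. A dimmer probe set of EIF1AX gave 0.75 (SE 0.40), with overlapping pools.

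The other initiation genes were lower or level. EIF2A, which is not a subunit of eIF2 and can bring initiator tRNA by itself, had 1682.5 and 1751 with carnitine against 3005 and 1854 without (log2 ratio -0.46 ± 0.26, SE), so that most of the gap came from control pool 1, and the log2 fold change was -0.11 without it. EIF6, which keeps the ribosomal subunits apart, was at -0.22, EIF4G2, a scaffold without the cap-binding part, at -0.15, and EIF2D at -0.13. As a whole the 34 genes of the initiation group had 18 values above 0 and 16 below, with a median of 0.012. By unadjusted p, 5 of them were higher and 1 lower, or 14.7% and 2.94%, beside 7.98% and 4.37% of the genes above the median signal. The group follows names, and the 5 include EIF4A3, which does not act in initiation.

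**Figure D3:**
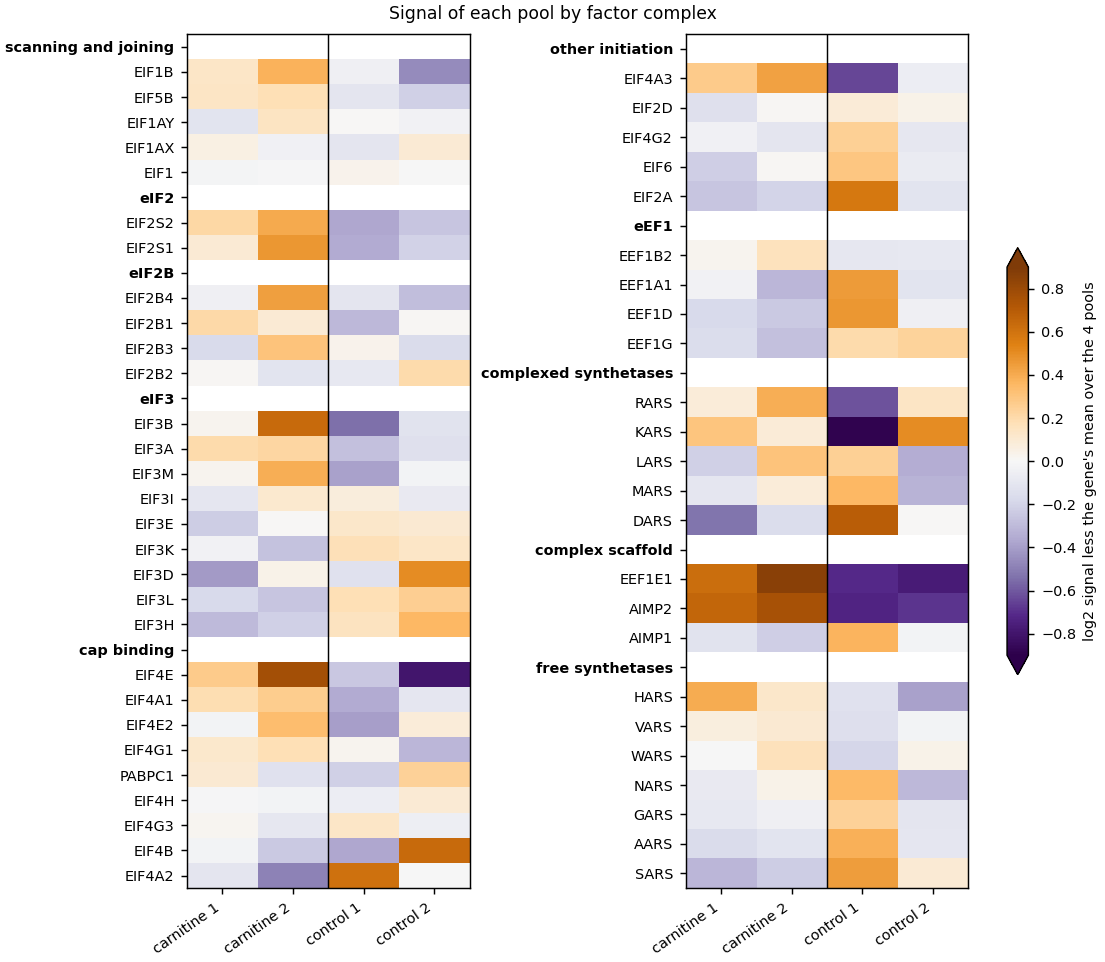
Log2 signal of each pool less the gene's mean over the 4 pools, in rows by factor complex and in columns with the carnitine pools left of the control pools, orange for higher and purple for lower. EEF1E1 and AIMP2 show the strongest contrast between the diets, eIF3 and the cap-binding factors hold rows of both signs, and many rows of the synthetases differ more between the control pools than between the diets.

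The genes of eEF1, the factor that loads charged tRNA onto the ribosome, had log2 fold changes below 0 in 3 of 4 cases. Among the 5039 genes above the median signal, 2507 were below 0. Of the 4, EEF1G alone had an unadjusted p under 0.05, beside 12.3% of those genes in either direction. Shares of 4 genes rest on single genes and were not tested. EEF1G, the gamma subunit of the exchange factor, had 10966 and 10101 with carnitine against 14085 and 14416 without (log2 ratio -0.44 ± 0.18, SE, and limma adjusted p = 0.576). EEF1D, the delta subunit, had 3609 and 3459 against 5641 and 3955 (log2 ratio -0.42 ± 0.22, SE), with -0.16 when control pool 1 was left out and -0.67 when control pool 2 was. The value above 0 was that of EEF1B2, the beta subunit that exchanges the nucleotide, at 13098 and 14311 with carnitine against 12031 and 12073 without (log2 ratio 0.18 ± 0.18, SE). In all 3 the pools of the diets were apart.

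EEF1A1, the GTPase that carries the tRNA, had 6763 and 5577 with carnitine against 9469.9 and 6388 without (log2 ratio -0.34 ± 0.24, SE), and the pools overlapped. All 3 of its regular probe sets gave negative values, down to -0.60. The array also holds control probe sets for this gene, which were left out of the fit as quality controls. The one in the middle of the message, which the annotation gives to EEF1A1, read 12769 and 10345 against 7072.5 and 18817, so that the control pools enclosed the carnitine pools, and its log2 fold change was -0.0054. The end of the message nearest the poly(A) tail was level, at 35559 and 32595 against 35422 and 36928, and the 5' end gave 1518 and 1102 against 612 and 2034. The control pools differed little at the 3' end and by more in the middle and at the 5' end. EIF5A, named for initiation but acting in elongation at stretches such as polyproline, had 12198 and 12742 against 14469 and 11828.5 (log2 ratio -0.070 ± 0.20, SE). The 5 elongation genes had a median of -0.34, which was -0.070 with the control probe set for EEF1A1 and -0.057 without control pool 1.

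Of the 12 cytosolic synthetases that the naming rule takes in, 0 were higher at an unadjusted p under 0.05 and 2 were lower, beside 7.98% and 4.37% of the genes above the median signal. The rule leaves out FARSA and FARSB, both higher at that p, which are described with the multisynthetase complex. DARS, which charges aspartate, had 516 and 668 with carnitine against 1203 and 747 without (log2 ratio -0.69 ± 0.29, SE, and limma adjusted p = 0.571). Leaving out control pool 1 gave -0.35, and leaving out control pool 2 gave -1.03. SARS, the seryl-tRNA synthetase, had 1389 and 1474.5 against 2355 and 1848 (log2 ratio -0.54 ± 0.20, SE, and limma adjusted p = 0.524). AARS, for alanine, had 2115 and 2184 against 3083 and 2201 (log2 ratio -0.28 ± 0.22, SE), where the carnitine pools lay just under control pool 2 and the value was -0.034 when control pool 1 was left out. A dimmer probe set of AARS gave 188 and 186 against 296 and 254 (log2 ratio -0.55 ± 0.28, SE), with the pools apart.

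HARS, for histidine, had the highest log2 fold change of these 12 synthetases, 0.52 (SE 0.25), on signals of 498 and 412 with carnitine against 345 and 288 without. RARS, for arginine, had 905 and 1122 against 558 and 941, or 0.48 (SE 0.29), with overlapping pools and 0.099 when control pool 1 was left out. KARS, for lysine, had 4309 and 3722 against 1899 and 4966, so that both carnitine pools lay between the control pools (log2 ratio 0.38 ± 0.41, SE). NARS, for asparagine, gave 4056 and 4398 against 5449 and 3466 (log2 ratio -0.041 ± 0.25, SE), with the control pools on either side. The other synthetases had values of 0.17 (VARS), 0.16 (WARS), 0.096 (LARS), -0.024 (MARS) and -0.14 (GARS). A dimmer probe set of WARS gave 0.70 (SE 0.28). The 12 genes had 6 values above 0 and 6 below, with a median of 0.036.

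The spread between pools of the control diet was wide for these enzymes. The median absolute log2 difference between the carnitine pools was 0.17 and between the control pools 0.54 over the 12 cytosolic synthetases, and in 11 of the 12 the control pools differed more. For the genes above the median signal the medians were 0.21 and 0.30, and the control pools differed more in 3025 of 5039. These values describe the arrays, and the synthetases were not tested against other genes.

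EEF1E1, also called AIMP3, is a scaffold protein that joins several synthetases into the multisynthetase complex and is an elongation factor by name alone. Its signals were 607 and 717 with carnitine against 241 and 232 without, or 662 ± 77.9 against 236 ± 6.80 (SD, n = 2 pools each), a fold change of 2.79 (log2 ratio 1.48 ± 0.24, SE, and limma adjusted p = 0.212). Both carnitine pools lay far above both control pools, and a second, dimmer probe set gave 105 and 97.0 against 40.1 and 47.0 (log2 ratio 1.22 ± 0.45, SE). It was the one member whose unadjusted p was under 0.05 in all 14 other settings, and its log2 fold change ranged from 1.36 to 1.60 when a pool was left out.

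The other scaffold proteins of the complex lie outside the naming rule. AIMP2, a core scaffold of the complex, had 805 and 864 with carnitine against 307 and 318 without (log2 ratio 1.42 ± 0.22, SE, and limma adjusted p = 0.208). AIMP1, which anchors arginyl-tRNA synthetase, went the other way, at 3246 and 3033 against 4563 and 3466 (log2 ratio -0.34 ± 0.21, SE). Of the 5 synthetases of the complex among the members, DARS, KARS, LARS, MARS and RARS, the log2 fold changes ran from -0.69 to 0.48 with a median of 0.096, and EPRS, which charges glutamate and proline, had 0.16. Signals of these enzymes thus lay on both sides of 0 beside the 2 higher scaffold genes. The phenylalanyl-tRNA synthetase, whose subunits FARSA and FARSB also escape the naming rule, was higher in both: FARSA had 1937 and 2179 against 1514 and 968 (log2 ratio 0.76 ± 0.25, SE) and FARSB 1384 and 1514 against 1021 and 734 (log2 ratio 0.74 ± 0.23, SE), with adjusted p = 0.470 and 0.455 from limma.

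Of the 6 synthetases of the mitochondrion, 2 had log2 fold changes above 0 and 4 below, with a median of -0.031. EARS2, for glutamate, had 575 and 576 with carnitine against 485 and 282 without (log2 ratio 0.64 ± 0.30, SE, and limma adjusted p = 0.615), with 0.25 when control pool 2 was left out and 1.03 when control pool 1 was left out. IARS2, for isoleucine, had 336 and 601 against 490.0 and 562 (log2 ratio -0.22 ± 0.32, SE), and FARS2, for phenylalanine, 459 and 519.6 against 519.9 and 471 (log2 ratio -0.019 ± 0.23, SE). VARS2 and WARS2, for valine and tryptophan, were at -0.044 and -0.071, with wide intervals from -0.81 to 0.72 and from -0.81 to 0.67. NARS2, for asparagine, had the largest log2 fold change of all members, 2.04 (SE 0.84, limma adjusted p = 0.563), but on signals of 20.0 and 26.7 against 3.92 and 8.08, far below the median signal of 111. When signals under the 25th percentile of each array were raised to that percentile, its log2 fold change was -0.026.

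Among the regulators, EIF2AK2, the kinase PKR that phosphorylates EIF2S1 in the presence of double-stranded RNA, had 888 and 783 with carnitine against 568 and 457 without (log2 ratio 0.71 ± 0.23, SE, and limma adjusted p = 0.461). EIF4EBP2, which holds EIF4E away from EIF4G1 until it is phosphorylated, had 3507 and 2783 against 2792 and 2782 (log2 ratio 0.16 ± 0.20, SE). It has 4 probe sets above the median signal, and they did not agree in sign: values ran from -0.17 to 0.51. EEF1AKMT1, a lysine methyltransferase of EEF1A1, was at -0.085, with 1694 and 1793 against 2076 and 1646 (SE 0.20). Other kinases of EIF2S1 and other proteins that bind EIF4E were not analysed here.

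Of 13 members with several probe sets above the median signal, 9 had log2 fold changes of one sign over all of these and 4 did not (EIF3M, EIF4EBP2, EIF4H and EIF5A). The 4 exceptions had small values in their brightest probe set, apart from EIF3M at 0.42.

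**Figure D4:**
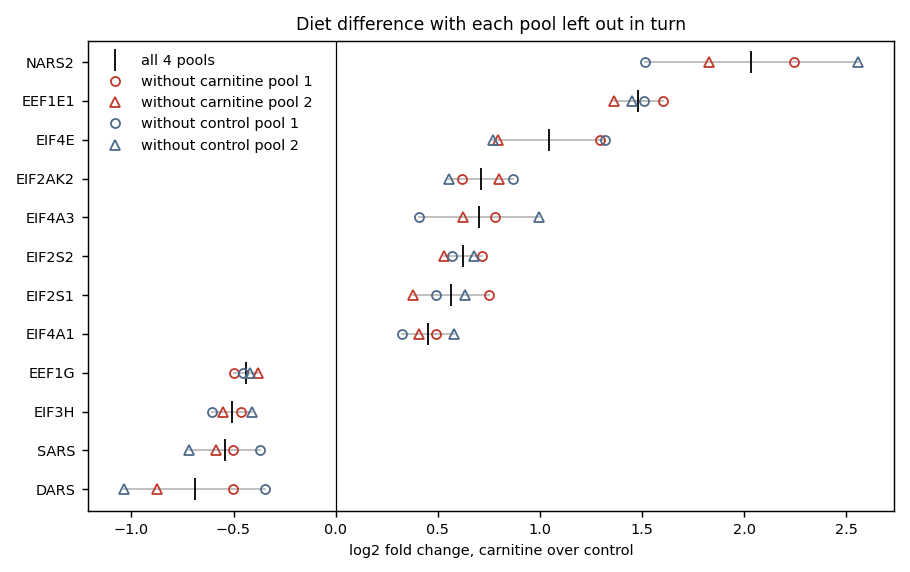
Log2 fold change of the 12 genes with an unadjusted p under 0.05, carnitine over control, with all 4 pools (black tick) and with each pool left out in turn (red for a carnitine and blue for a control pool, circle for pool 1 and triangle for pool 2). EEF1E1 lies between 1.36 and 1.60, and NARS2, DARS and EIF4A3 spread most. The side of 0 is fixed by the separate pools of these genes.

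Since the pools of the 12 genes do not overlap between the diets, leaving out a pool could change the size of their difference but not its direction. The size moved more in some genes than in others: DARS ran from -1.03 to -0.35 and EIF4A3 from 0.41 to 0.99, but EEF1G from -0.50 to -0.38. Such a fit leaves a single pool in 1 diet, so members called in it are not counted here.

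Genes of the pathways around translation were counted in the same way. One list of 13 annotated genes was drawn up around mTORC1, the nutrient-sensing kinase that phosphorylates the eIF4E-binding proteins. Of these 13, 0 were higher and 2 were lower by unadjusted limma p. SESN1, which restrains mTORC1, had 858 and 665 with carnitine against 1395 and 1578 without (log2 ratio -0.97 ± 0.22, SE, and limma adjusted p = 0.358). MKNK1, a kinase of EIF4E that is in the list without being part of the mTORC1 pathway, had 2075 and 1397 against 2638 and 3857 (log2 ratio -0.91 ± 0.27, SE, and limma adjusted p = 0.446). RRAGA, a GTPase that brings amino acid signals to mTORC1, had 0.47.

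Of 19 genes of the integrated stress response, which follows phosphorylation of EIF2S1, 0 were higher and 1 lower. That was ASNS, the asparagine synthetase, with 259 and 122 against 552 and 317 (log2 ratio -1.24 ± 0.44, SE, and limma adjusted p = 0.496). ATF4, the transcription factor of this response, had 5571 and 3772 against 6160 and 3707 (log2 ratio -0.060 ± 0.30, SE), with overlapping pools. CEBPB and CEBPG were at -0.45 and 0.74.

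Of 9 other translation factors, 1 was higher and 0 lower, namely LARP4, an RNA-binding partner of PABPC1, with 1669 and 1677 against 1242 and 1043 (log2 ratio 0.56 ± 0.20, SE, and limma adjusted p = 0.494), and PABPC4 and PAIP1 had -0.25 and -0.18. Of 9 mitochondrial translation factors, 0 were higher and 0 lower at that p in limma, and TUFM, the elongation factor of the mitochondrion, had 2269 and 3602 against 3177 and 1245 (log2 ratio 0.52 ± 0.43, SE). MTFMT and TSFM were at -0.38 and 0.20. Of the 6 synthetases and partners outside the naming rule, AIMP2, FARSA and FARSB were higher and 0 were lower. The 2 lower genes of the mTORC1 list, SESN1 and MKNK1, are 15.4% of its 13 genes, and 3 of these 6 partners were higher. Both shares come from a handful of genes and were not tested. These shares stand beside the 7.98% higher and 4.37% lower of the genes above the median signal.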

How the data were processed

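Liver RNA of piglets was measured on 4 single-colour Affymetrix porcine GeneChips, 2 pools per diet. The authors deposited MAS5 signal intensities on a linear scale, with all arrays set to one trimmed mean. MAS5 5.0, GCOS 1.1.2 and Affymetrix Expression Console 1.1 are credited in the submitters' processing notes. Filters and detection calls were not used here. Signals were taken as log2 without a pseudocount. After removal of 124 Affymetrix controls from 24123 rows, 23999 were fitted in R 4.3.3 by limma 3.58.1 (lmFit, then eBayes with trend, on 2 residual degrees of freedom), with Benjamini-Hochberg adjustment over all of them. Read depth does not apply to arrays, whose number sets the precision. The p-values rest on the spread between pools, drawn towards the variance trend over all probe sets (median 7.18 total degrees of freedom). They do not measure the spread between single pigs. The fit was tested on simulated data.

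Symbols came from the platform annotation, which can be old: 10069 probe sets have 1 symbol, 198 several and 13732 none. Coordinates and sequences are not given, since no build is named and no sequence table was used. The members and lists were chosen with earlier results of these data known. Pool values are given for members with an unadjusted p under 0.05 and all 4 pairwise comparisons in one direction, for the 2 brightest and the 2 with the largest log2 fold change of each group, and for members whose bright probe sets differ in sign by over 0.5. For each pathway list up to 3 genes with the smallest p are named. Another 14 members (EEF1A1, EIF1B, EIF2A, EIF3A, EIF3B, EIF3K, EIF3L, EIF4A2, EIF4B, EIF4G1, EIF5B, HARS, RARS and AARS), EIF2B4, AIMP1, EPRS, ATF4 and the grouping into complexes were added after their values were seen. The labels number the pools as replicates. Same-numbered pools did not deviate together (r = 0.00322 across probe sets). Alternatives were quantile normalization, centring, a floor, an offset of 64, a filter on dim probe sets, the mean over probe sets, eBayes without trend, the one-factor analysis of variance, a replicate block, each pool left out and Affymetrix controls kept, the last chosen after seeing the data.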

Additional observations from a re-analysis of the deposited data

How the results depend on the processing

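All values below are for carnitine against control. The 61 members were fitted again under 14 other settings. Members with an adjusted p under 0.05 in limma numbered 0, and 1 with the replicate number as a block (EEF1E1, adjusted p = 0.0454). The labels give no shared origin for the numbers, and the block counted 7 members as higher and 4 as lower by unadjusted p. The count of higher members, 8 in the reported fit, was 3 without a variance trend and 4 by the one-factor analysis of variance, with 1 to 13 when a pool was left out. The count of lower members, 4 in that fit, was 2 with arrays centred on the median, 2 with the mean over probe sets and 0 without a trend. The shares over all genes under these settings are not given here, so these counts have no background beside them.

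The median log2 fold change ranged from -0.025 to 0.080 for initiation when a pool was left out, from -0.45 to -0.057 for elongation, from -0.26 to 0.12 for cytosolic and from -0.067 to 0.13 for mitochondrial synthetases. For elongation it was -0.070 with the Affymetrix controls kept. The direction of some members turned. With centring, EIF1, FARS2 and PABPC1 had 0.0088, 0.020 and 0.012, and with quantile normalization EIF1, EIF5A and PABPC1 had 0.10, 0.044 and 0.12. With the mean over probe sets EIF4EBP2 had -0.017 and EIF5A 0.057, and with dim signals raised NARS2 had -0.026. When a pool was left out, EEF1AKMT1 ranged from -0.25 to 0.083, EIF4EBP2 from -0.0021 to 0.33, EIF5A from -0.21 to 0.076, FARS2 from -0.11 to 0.070, IARS2 from -0.65 to 0.20, KARS from -0.31 to 1.08, NARS from -0.37 to 0.29, PABPC1 from -0.26 to 0.20 and EIF4B from -0.77 to 0.23. The causes were not tested. Signal over background is unknown without detection calls, which limits NARS2 most.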
